A study of Mus musculus with 48 samples.

Results

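The Slc25 family holds the carriers of the inner mitochondrial membrane. Each carrier moves a small set of solutes, such as ADP and ATP, phosphate, citrate, amino acids, acylcarnitine, cofactors or iron, between the cytosol and the matrix, and so links metabolism on the 2 sides of a membrane that most solutes cannot cross. Renal tubule cells, above all those of the proximal tubule, are rich in mitochondria and burn fatty acids to drive the reabsorption of salt, glucose and amino acids. Members of the family were taken as all genes whose array symbol begins with Slc25a and whose probe was detected, at a detection p under 0.05 against the negative control beads, on at least 3 arrays, with the probe of highest mean signal standing for each gene. This gave 33 members out of 39 such symbols on the array and out of 11559 genes measured in all. Slc25a18, Slc25a21, Slc25a31, Slc25a40, Slc25a41 and Slc25a53 were detected on at most 1 array and were left out. Of the members, 27 were detected on all 48 arrays.

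Kidneys came from female NZB/W F1 mice, a hybrid of New Zealand Black and New Zealand White mice that develops lupus nephritis with age, housed under 12 h of light and 12 h of dark, and the kidneys were perfused with PBS. The young mice (26 arrays) were 12 weeks old and had no disease. The nephritic mice (22 arrays) were 30 to 45 weeks old and were taken 2 to 3 weeks after proteinuria exceeded 300 mg/dl, while blood urea nitrogen was under 25 mg/dl, so age and disease cannot be told apart. Kidneys were collected at 6 Zeitgeber times (ZT, hours after lights on): young arrays numbered 6 at ZT12 and 4 at every other time, and nephritic arrays numbered 5 at ZT8 and ZT12 and 3 at every other time. The study describes its samples as kidneys of individual mice. The labels tie no array to a mouse, so it is not settled here whether the 2 array sets of ZT12 hold different mice, and the p-values measure the spread between arrays.

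The labelled tissue matched its markers: Slc34a1 of the proximal tubule and Umod of the thick ascending limb were detected on all 48 arrays. Cyp11a1 of the adrenal gland, detected on 9 arrays, stood high on young ZT12 replicate 5 and young ZT20 replicate 1. Relative to all arrays it read 2.70 and 2.08 there, and at most 0.70 elsewhere. The part of adrenal tissue in the results was not tested. Values below are log2 signals after background correction and quantile normalization, and a difference of 1 is a 2-fold change. From 12706 to 14077 probes were detected per array. Of the 22 nephritic arrays, 8 stood apart by a low signal of Pabpc1, the gene of the cytoplasmic poly(A) binding protein (at most 6.69, against at least 8.20 on the other 40 arrays). They were all 3 arrays of ZT0, all 3 of ZT4, and replicate 3 of both ZT16 and ZT20. Results on nephritic kidneys are therefore also given without them, over ZT8 to ZT20 only, and with a covariate for them. No other nephritic array of ZT0 or ZT4 is left to set against them. Where each time has its own mean, the covariate thus rests on replicate 3 of ZT16 and of ZT20 alone. At ZT12 a second array set, told from the first by its titles, held 3 young and 3 nephritic arrays, and values are given within each set where they differed.

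The question of which carriers vary over the day in healthy kidneys was put to the young arrays. By limma's F-test over the 6 times, 12 of 33 members (36.4%) varied with time at an adjusted p under 0.05, against 18.3% of all 11559 genes, and 15 members had an unadjusted p under 0.05. The median range between the highest and lowest time mean was 0.37 log2 over the members and 0.28 over all genes. The 12 were the pyrimidine nucleotide carrier Slc25a33, the coenzyme A carrier Slc25a42, the acylcarnitine carrier Slc25a20, the ATP-Mg/phosphate carrier Slc25a25, the citrate carrier Slc25a1, the dicarboxylate carrier Slc25a10, the ornithine carrier Slc25a15, the basic amino acid carrier Slc25a29, the kidney carrier Slc25a30, and Slc25a34, Slc25a35 and Slc25a45. Their highest means fell at ZT12 for 5 members, at ZT16 for 3, at ZT0 for 2 and at ZT4 and ZT8 for 1 each, with 0 at ZT20. Of all 2111 genes that varied, 492 were highest at ZT12 and 409 at ZT0.

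Slc25a33, which imports pyrimidine nucleotides for the synthesis of mitochondrial DNA and RNA (GRCm38 chromosome 4, 149744036 to 149774267), had the smallest p of the family. Its young arrays read 7.76, 7.72, 7.49 and 7.32 at ZT0 and 7.62, 7.63, 7.66 and 7.74 at ZT4. They read 8.49, 8.14, 8.50 and 8.39 at ZT8. At ZT12 they lay between 8.16 and 8.51 (median 8.37, n = 6). All arrays of ZT8 and ZT12 were above all arrays of the other 4 times, whose highest value was 8.07 at ZT16. The range of time means was 0.81 (adjusted p = 3.7e-07). A fitted 24 h cosine had a young amplitude of 0.43 ± 0.07 (SE) with its peak at 11.2 h. The SEs of amplitudes rest on a spread pooled over young and nephritic arrays, so they do not measure the spread of young arrays alone.

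Slc25a42 carries coenzyme A into the matrix, where fatty acid oxidation uses it (chromosome 8, 70184340 to 70212281). It read 9.31, 8.84, 8.63 and 8.71 at ZT4 and 9.47, 9.55, 9.37 and 9.76 at ZT8. At ZT12 its arrays had a median of 9.58 and a highest value of 10.32, with an SD of 0.43. The range of time means was 0.73 (adjusted p = 0.00239) and the fitted amplitude 0.39 ± 0.11. The high values of ZT8 did not overlap with those of ZT4, whereas the lowest array of ZT12 lay below the highest of ZT4.

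Slc25a20 exchanges acylcarnitine for free carnitine and thereby brings long-chain fatty acids to beta oxidation (chromosome 9, 108662136 to 108684642). Young arrays lay between 10.68 and 11.13 at ZT12 (median 10.76, n = 6) and read 10.73, 10.78, 10.52 and 10.63 at ZT16. At ZT4 they read 10.36, 9.92, 10.08 and 10.16. All 10 arrays of ZT12 and ZT16 were above all arrays of the remaining times, the highest of which was 10.43. The range was 0.69 (adjusted p = 5.71e-05). Another probe of Slc25a20 also varied in young kidneys, by 1.02 with its highest mean at ZT16 (adjusted p = 0.00271 over all probes).

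Slc25a25, a calcium-regulated carrier that exchanges ATP-Mg for phosphate (chromosome 2, 32414487 to 32451470), had the largest range of the family at 1.53 (adjusted p = 0.001). It read 9.17, 9.32, 9.63 and 10.37 at ZT0, then 8.42, 8.07, 8.28 and 8.70 at ZT4. At ZT12 its arrays lay between 9.13 and 10.50 (median 10.09, n = 6), and at ZT16 they read 8.35, 8.68, 8.61 and 9.10. The course thus had 2 high times, at lights on and lights off, and a 24 h cosine caught little of it (amplitude 0.28 ± 0.18).

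Adipose markers also peaked at ZT12 and were lowest at ZT4 in young kidneys, with 2 of 6 detected markers (of 9 listed) passing the test over time. Their mean relative to all arrays was -0.88 at ZT4 (from -1.62 to 0.43) and 0.95 at ZT12 (from -0.43 to 2.20). Within ZT12 the marker mean was -0.43, 0.60 and 0.10 in the first array set and 1.28, 2.20 and 1.92 in the second. In the same order of arrays, Slc25a25 read 9.22, 10.38 and 9.85 in the first set and 9.13, 10.34 and 10.50 in the second. Slc25a20 read 10.68, 11.13 and 10.82, then 10.75, 10.75 and 10.77. For Slc25a42 the first set read 9.46, 10.32 and 9.59 and the second had a mean of 9.41. Within the first set the 3 arrays thus had the same order in the adipose markers and in all 3 carriers. In the second set the array with the lowest adipose markers was also lowest in Slc25a25 and Slc25a42, whereas Slc25a20 was nearly level over the 3 arrays. The second set, with the higher adipose markers, had the lower mean of Slc25a42 and Slc25a20 (10.76, against 10.88 in the first set). Slc25a25 went the other way, with a mean of 9.988 in the second set and 9.815 in the first. The part of adipose tissue in these courses was not tested. Without the second set, 10 members varied in young kidneys, these 3 among them.

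The carriers of dicarboxylates and of amino acids moved by smaller amounts. Slc25a10, which exchanges malate or succinate for phosphate, was lowest at ZT0 (10.64 ± 0.19, SD, n = 4) and highest at ZT12 (11.05 ± 0.14, n = 6; adjusted p = 0.00143). Slc25a1, which exports citrate for fatty acid and sterol synthesis, rose from 9.47 ± 0.12 at ZT0 to 9.80 ± 0.11 at ZT4 (n = 4 each; adjusted p = 0.0207), but its other probe did not vary (range 0.23; adjusted p = 0.676 over all probes). Slc25a15, the ornithine carrier tied to the urea cycle and to arginine metabolism, ran the other way. It was highest at ZT0 (10.56 ± 0.04, n = 4) and lowest at ZT12, where it read 10.14 ± 0.23 over 6 arrays (adjusted p = 0.007). Its second probe also peaked at ZT0, with a range of 0.71. The ZT12 trough of Slc25a15 was deeper in the second array set (9.91 to 10.02) than in the first (10.16 to 10.50), and without the second set the call of Slc25a15 was lost (as was that of Slc25a35). Slc25a29, which carries arginine and lysine, rose from 5.88 ± 0.09 at ZT0 to 6.49 ± 0.19 at ZT16 (n = 4 each; adjusted p = 0.0225).

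Among the remaining members, Slc25a34, whose substrate is not settled, was highest at ZT12 (8.02 ± 0.10, n = 6) and lowest at ZT0 (7.39 ± 0.24, n = 4; adjusted p = 0.000783). Its other probe, also highest at ZT12, did not pass (range 0.28; adjusted p = 0.0846). Slc25a30, a relative of the uncoupling proteins first described in kidney, was highest at ZT0 (7.85 ± 0.38) and lowest at ZT8 (7.25 ± 0.29, n = 4 each; adjusted p = 0.00701). Slc25a35 went from 7.19 ± 0.21 at ZT0 to 7.69 ± 0.15 at ZT16 (n = 4 each; adjusted p = 0.027). Slc25a45 went from 9.02 ± 0.12 at ZT4 to 9.39 ± 0.10 at ZT16 (n = 4 each; adjusted p = 0.0212). The calls of Slc25a29 and Slc25a35 were the weakest. Leaving out 1 array ended that of Slc25a29 in 3 cases (ZT0 replicates 1 and 4 and ZT16 replicate 1; adjusted p = 0.0526 to 0.0593) and that of Slc25a35 in 4 (ZT0 replicates 3 and 4 and ZT16 replicates 1 and 3; adjusted p = 0.0555 to 0.0706). With the code that opens each array title as a random block, 8 members varied in young kidneys, and Slc25a1, Slc25a29, Slc25a35 and Slc25a45 did not pass. Each of the 7 young codes held a single time, with 2 codes at ZT12 alone, so code and time cannot be told apart at the other times. The same 8 varied when only ZT8 to ZT20 were tested. How many of all genes varied in these settings is not given here.

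**Figure D1:**
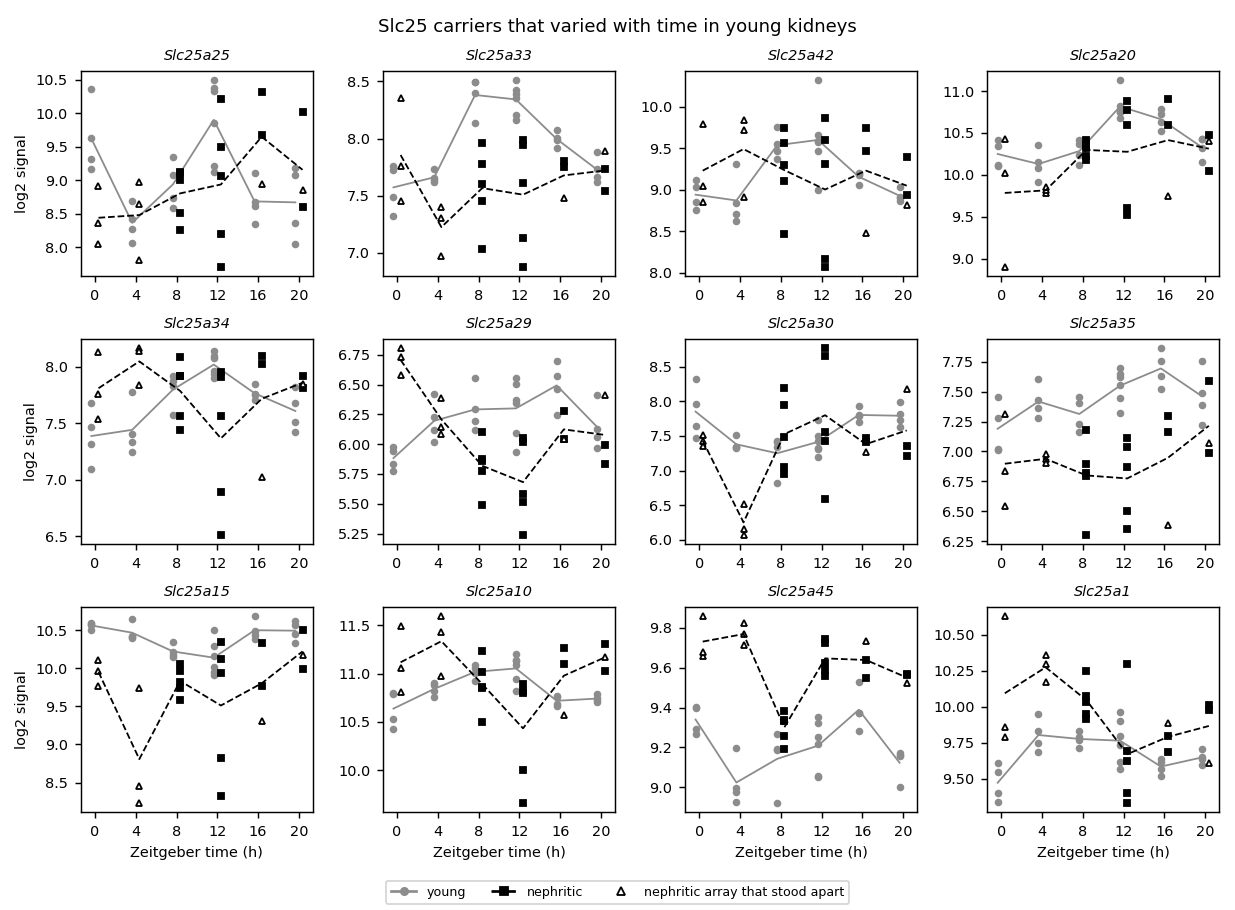
Log2 signal against Zeitgeber time in hours for the 12 Slc25 members that varied with time in young kidneys, ordered by range. Grey circles are young arrays, black squares nephritic arrays and open triangles the 8 nephritic arrays that stood apart; lines join group means, and young Slc25a33 stands above 8.1 on all arrays of ZT8 and ZT12.

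Promoter windows from 250 bases before to 50 bases after annotated start sites were available for 27 of 33 members (34 windows, RefSeq, GRCm38.p6). The clock activators CLOCK and BMAL1 bind the E-box CACGTG, which reads the same on both strands. It occurred in 7 of 34 member windows (20.6%) and in 7.15% of all 32851 windows of this length, or 7.84% of the 21263 windows of coding genes. The 6 members were Slc25a1, Slc25a13, Slc25a14, Slc25a15, Slc25a33 and Slc25a36, and the windows of Slc25a14 that held it overlap. Of these 6 members 3 varied in young kidneys, as did 11 of the 27 members with a window. The D-box TTATGNAA, bound by DBP and its relatives, and the ROR element, each searched on both strands, occurred in 0 member windows, against 3.38% and 0.219% of all windows. The cAMP response element TGACGTCA occurred in windows of Slc25a25 and Slc25a36 (5.88% of member windows, 1.79% of all windows). Slc25a15 and Slc25a25 had further annotated start sites, whose windows held none of these motifs. A match is a run of letters and was not tested for binding.

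The windows of the 3 time-varying members with an E-box, and that of Slc25a25 with a cAMP response element, are shown 5′ to 3′ on the strand of the gene with the motif in capitals. Counted from the start site, the first base of the motif is at -8 in Slc25a33 (chr4:149774218-149774517), -77 in Slc25a15 (chr8:22398228-22398527), -239 in Slc25a1 (chr16:17928170-17928469) and -150 in Slc25a25 (chr2:32424017-32424316), and all 4 genes lie on the minus strand.
Slc25a33: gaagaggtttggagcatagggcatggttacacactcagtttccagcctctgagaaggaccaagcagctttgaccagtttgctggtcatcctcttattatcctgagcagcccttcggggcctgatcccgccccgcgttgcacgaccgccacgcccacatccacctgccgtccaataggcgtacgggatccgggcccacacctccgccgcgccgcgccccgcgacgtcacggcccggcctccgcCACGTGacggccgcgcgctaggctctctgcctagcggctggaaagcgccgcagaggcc
Slc25a15: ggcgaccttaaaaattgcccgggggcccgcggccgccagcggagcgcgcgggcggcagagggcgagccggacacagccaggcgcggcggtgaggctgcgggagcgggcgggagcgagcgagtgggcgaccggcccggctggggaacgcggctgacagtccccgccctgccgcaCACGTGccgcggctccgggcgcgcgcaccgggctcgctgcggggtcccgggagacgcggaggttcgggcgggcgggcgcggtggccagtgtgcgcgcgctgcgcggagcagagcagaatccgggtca
Slc25a1: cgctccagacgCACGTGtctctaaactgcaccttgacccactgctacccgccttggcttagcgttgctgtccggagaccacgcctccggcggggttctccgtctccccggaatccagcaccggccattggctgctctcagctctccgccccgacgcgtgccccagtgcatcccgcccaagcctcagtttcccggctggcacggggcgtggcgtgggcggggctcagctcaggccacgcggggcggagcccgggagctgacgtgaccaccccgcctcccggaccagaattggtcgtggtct
Slc25a25: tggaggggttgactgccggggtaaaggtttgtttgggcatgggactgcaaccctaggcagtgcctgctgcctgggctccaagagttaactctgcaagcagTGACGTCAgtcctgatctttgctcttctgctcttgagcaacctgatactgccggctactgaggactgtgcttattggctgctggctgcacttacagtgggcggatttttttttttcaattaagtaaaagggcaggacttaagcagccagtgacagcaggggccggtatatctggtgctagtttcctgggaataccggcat
In young kidneys the highest mean fell at ZT8 for Slc25a33, ZT0 for Slc25a15, ZT4 for Slc25a1 and ZT12 for Slc25a25. Slc25a1 was nearly level over ZT4, ZT8 and ZT12 (9.80, 9.78 and 9.76), and Slc25a25 was also high at ZT0. The peaks of the fitted 24 h cosine were at 11.2 h for Slc25a33, 22.4 h for Slc25a15, 8.64 h for Slc25a1 and 12.2 h for Slc25a25.

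The same test in nephritic kidneys called 7 of 33 members (21.2%, against 17.2% of all genes), and 11 had an unadjusted p under 0.05. They were Slc25a3, Slc25a45, Slc25a26, Slc25a29, Slc25a48, Slc25a28 and Slc25a14, of which 2, Slc25a29 and Slc25a45, also varied in young kidneys. Of the 7 members, 4 had their highest mean at ZT4, as did 790 of all 1984 genes that varied in nephritic kidneys. All nephritic arrays of ZT0 and ZT4 stood apart by Pabpc1. Without the 8 arrays 0 members varied by limma, with 6 at an unadjusted p under 0.05. The same numbers were found with the covariate. The share of all genes varying in these settings is not given here, so the counts do not show a loss particular to the carriers. Leaving out replicate 2 of nephritic ZT4 alone reduced the count from 7 to 4. Adipose markers varied here too, with 2 of 6 detected markers passing the test over time. Their mean relative to all arrays lay between 0.88 and 1.22 at nephritic ZT0 and between -1.43 and -0.67 at nephritic ZT4. The part of adipose tissue in the nephritic courses was not tested.

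Slc25a3, which brings phosphate into the matrix for ATP synthesis (chromosome 10, 91116574 to 91124046), had the largest nephritic range at 2.73 (adjusted p = 0.00557). Nephritic arrays read 9.75, 9.46 and 9.22 at ZT0 and 8.13, 8.22 and 9.10 at ZT4. They read 11.30, 11.27, 11.34, 10.71 and 11.15 at ZT8 and 10.48, 10.43, 11.40, 11.66 and 12.10 at ZT12. At ZT16 they read 11.50, 10.76 and 9.10 and at ZT20 11.99, 11.25 and 9.83, with the array that stood apart last in each case. The low values of Slc25a3 were thus those of the 8 arrays at every time that held one, and without them its range was 0.49. The second probe of Slc25a3 did not pass the test over nephritic times (adjusted p = 0.0792 over all probes).

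Slc25a26, which imports the methyl donor S-adenosylmethionine, ran the other way and was high on those times: 7.96, 7.89 and 8.29 at ZT0 and 8.05, 8.19 and 8.33 at ZT4, against 7.64, 7.27, 7.43, 7.56 and 7.61 at ZT12 (adjusted p = 0.00891). At ZT16 its array that stood apart read 7.57, below the other 2 (7.998 and 7.66), and at ZT20 8.05, above them (7.86 and 7.90). Slc25a29 was highest at ZT0 (6.73, 6.58 and 6.81) and lowest at ZT12 (5.52, 5.24, 5.58, 6.02 and 6.05), with no overlap (adjusted p = 0.00891). Its young arrays had been lowest at ZT0. Slc25a48, linked to choline import and near background in many kidneys (detected on 15 young and 16 nephritic arrays), read 5.01, 5.56 and 5.66 at ZT4 and 4.52, 4.48, 4.63, 4.57 and 4.41 at ZT12 (adjusted p = 0.0212). Slc25a45 was lowest at ZT8 (9.30 ± 0.08, n = 5) and highest at ZT4 (9.77 ± 0.06, n = 3; adjusted p = 0.00697). Slc25a28, the mitoferrin that imports iron, and Slc25a14, a relative of the uncoupling proteins, passed at an adjusted p of 0.031 and 0.0318. The call of Slc25a48 was lost without replicate 2 of ZT4 (adjusted p = 0.0695) and that of Slc25a28 without replicate 2 or 3 of ZT4 (adjusted p = 0.125 and 0.0561).

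The level of each carrier in nephritic and young kidneys was compared by taking the difference at every one of the 6 times and averaging these differences. By limma 13 of 33 members were lower (39.4%, against 28.6% of all genes) and 7 were higher (21.2%, against 36.5% of all genes). The 20 members called in either direction made up 60.6%, against 65.1% of all genes. The median difference was -0.10 log2 over the members and 0.03 over all genes. For 0 members did all nephritic arrays lie above or below all young arrays (0.943% and 0.0173% of all genes). By role, 5 of 8 cofactor and nucleotide carriers, 3 of 7 amino acid carriers, 2 of 4 adenine nucleotide and phosphate carriers, the acylcarnitine carrier, 1 of 3 uncoupling protein relatives and 1 of 6 other members were lower.

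**Figure D2:**
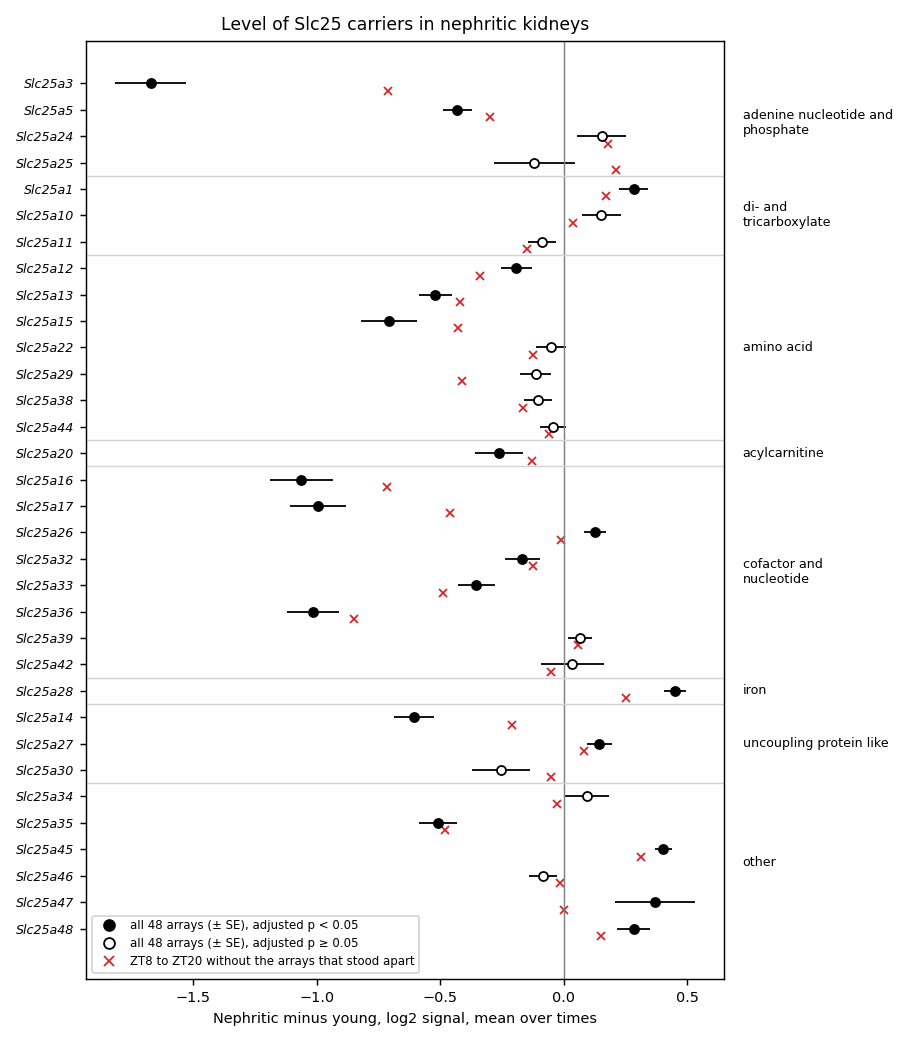
Difference in log2 signal, nephritic minus young, averaged over the times, for the 33 Slc25 members grouped by role. Circles are the estimate from all 48 arrays with its standard error, filled where the adjusted p was under 0.05, and crosses the estimate over ZT8 to ZT20 without the 8 arrays that stood apart; Slc25a3 lies farthest to the left, at -1.67.

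Slc25a3 fell most, by 1.67 ± 0.14 log2 (SE; 3.19-fold; adjusted p = 8.98e-13). Young arrays lay between 11.47 and 12.38 (median 11.95) and nephritic arrays between 8.13 and 12.10 (median 10.74). On 21 of 22 nephritic arrays it read below the mean of the young arrays collected at that time. Without the 8 arrays it still fell, by 0.71 (1.64-fold; adjusted p = 0.000158), and its second probe fell by 0.71 on all arrays. Slc25a5, which exchanges ADP for ATP across the same membrane (X chromosome, 36795597 to 36798808), fell by 0.43 ± 0.06 and was below the young mean on 22 of 22 arrays. Slc25a24 and Slc25a25, the ATP-Mg/phosphate carriers, differed by 0.15 and -0.12 and did not pass (adjusted p = 0.176 and 0.54).

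Among the carriers of cofactors and nucleotides, Slc25a16, linked to mitochondrial coenzyme A (chromosome 10, 62920632 to 62946494), fell by 1.06 ± 0.13 (2.09-fold; adjusted p = 2.86e-09). Young arrays lay between 9.67 and 10.15 (median 9.93) and nephritic arrays between 6.74 and 9.84 (median 9.07), with 22 of 22 below the young mean of their time. Slc25a36, a second pyrimidine nucleotide carrier (chromosome 9, 97075281 to 97111041), fell by 1.02 ± 0.11 (2.02-fold; adjusted p = 1.23e-10), from 7.59 to 9.03 in young arrays (median 8.67) to 6.99 to 8.69 in nephritic arrays (median 7.62). Slc25a17, the peroxisomal member of the family (chromosome 15, 81318921 to 81360765), fell by 0.99 ± 0.11 (1.99-fold; adjusted p = 1.02e-09). Its young arrays lay between 8.75 and 9.64 (median 8.96) and its nephritic arrays between 6.86 and 9.23 (median 8.21). Slc25a33 and the folate and FAD carrier Slc25a32 fell by 0.35 and 0.17. Slc25a42 and the glutathione carrier Slc25a39 differed by 0.03 and 0.07 and did not pass (adjusted p = 0.826 and 0.242). All of these falls are in whole kidney RNA, where fewer cells of a type and less RNA per cell cannot be told apart.

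Of the amino acid carriers, Slc25a15 fell by 0.71 ± 0.11 (1.63-fold; adjusted p = 8.21e-07), with nephritic arrays at 8.23 to 10.50 (median 9.88) and young arrays at 9.91 to 10.69 (median 10.41). Its second probe fell by 0.90. The aspartate-glutamate carriers of the malate-aspartate shuttle both fell, Slc25a12 by 0.19 and Slc25a13 by 0.52. Slc25a13 was near background, being detected on 25 of 26 young but only 6 of 22 nephritic arrays. The glutamate carrier Slc25a22, the glycine carrier Slc25a38, the branched-chain amino acid carrier Slc25a44 and Slc25a29 did not pass, with differences between -0.11 and -0.04. Without the 8 arrays, however, Slc25a29 (-0.41; adjusted p = 0.000388) and Slc25a38 (-0.16; adjusted p = 0.0384) were lower. Slc25a22 and Slc25a44 did not pass there either (adjusted p = 0.244 and 0.369). Slc25a20 fell by 0.26 ± 0.10 (adjusted p = 0.0187) and its second probe by 0.86, but without the 8 arrays the difference was -0.13 (adjusted p = 0.358).

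Of the relatives of the uncoupling proteins, Slc25a14 fell by 0.61 ± 0.08 (adjusted p = 2.01e-08; young 5.56 to 6.42, nephritic 4.36 to 6.26). Slc25a27 was near background, detected on only 4 young and 6 nephritic arrays. Its rise of 0.14 ± 0.05 (adjusted p = 0.0122) did not pass without the 8 arrays (adjusted p = 0.279) or with the covariate (adjusted p = 0.476). The fall of Slc25a14 was 0.21 without the 8 arrays. Slc25a30 differed by -0.25 and did not pass (adjusted p = 0.056). Slc25a35 fell by 0.51 ± 0.08, and by 0.48 without the 8 arrays. Slc25a34 and Slc25a46, a member of the outer membrane that acts in mitochondrial dynamics, differed by 0.09 and -0.09 and did not pass (adjusted p = 0.362 and 0.192).

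The largest rises were smaller than the largest falls. Slc25a28 (chromosome 19, 43663801 to 43675006) rose by 0.45 ± 0.04 (1.37-fold; adjusted p = 2.76e-11), from 9.81 to 10.50 in young arrays (median 10.13) to 10.09 to 11.16 in nephritic arrays (median 10.55). Slc25a45 (chromosome 19, 5877801 to 5885768) rose by 0.40 ± 0.03 (adjusted p = 9.15e-13), with young arrays at 8.92 to 9.53 (median 9.21) and nephritic arrays at 9.19 to 9.86 (median 9.61), and 22 of 22 nephritic arrays exceeded the mean of young arrays taken at the same time. Slc25a48 rose by 0.28 ± 0.07 and Slc25a26 by 0.13 ± 0.04, and neither passed without the 8 arrays. Slc25a1 rose by 0.28 ± 0.06 (adjusted p = 7.24e-05), but its other probe fell by 0.30 (adjusted p = 0.000949), so the probes of Slc25a1 gave no common direction. Slc25a47 rose by 0.37 ± 0.16 (adjusted p = 0.0449), a call that was lost when any of 27 of the 48 arrays was left out and that had no size without the 8 arrays (-0.00088). Slc25a11, the oxoglutarate and malate carrier, and Slc25a10 did not pass (-0.09 and 0.15), although another probe of Slc25a11 fell by 1.13 (adjusted p = 4.22e-11). In all, 10 members had more than 1 detected probe, and 11 of the 13 other probes had the sign of the probe used.

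Without the 8 arrays that stood apart, 13 of 33 members were lower and 3 higher. The lower members then included Slc25a29 and Slc25a38, which had not passed on all arrays. Of all genes, 20.5% were then lower and 25.8% higher. All 13 members that were lower on all arrays kept their sign and 11 of them passed, and of the 7 higher members 5 kept their sign and 3 passed (Slc25a1, Slc25a28 and Slc25a45). Slc25a20, Slc25a32, Slc25a26, Slc25a27, Slc25a47 and Slc25a48 did not pass. Among those that passed in both settings, the difference shrank by over 1.5 times for Slc25a3, Slc25a17 (-0.46), Slc25a15 (-0.43), Slc25a14 (-0.21), Slc25a28 (0.25) and Slc25a1 (0.17). It grew by over 1.5 times for Slc25a12 (-0.34). The covariate left 8 lower members, without Slc25a12, Slc25a14, Slc25a20, Slc25a32 and Slc25a35, and 4 higher members (Slc25a1, Slc25a28, Slc25a39 and Slc25a45). For the level as well, the covariate rested on replicate 3 of ZT16 and of ZT20. The shares of all genes called with the covariate are not given here. On the 8 arrays, 17 of 33 members read lower than on the other nephritic arrays, from which they differed by -2.14 for Slc25a3, -1.23 for Slc25a17 and 0.57 for Slc25a29.

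**Figure D3:**
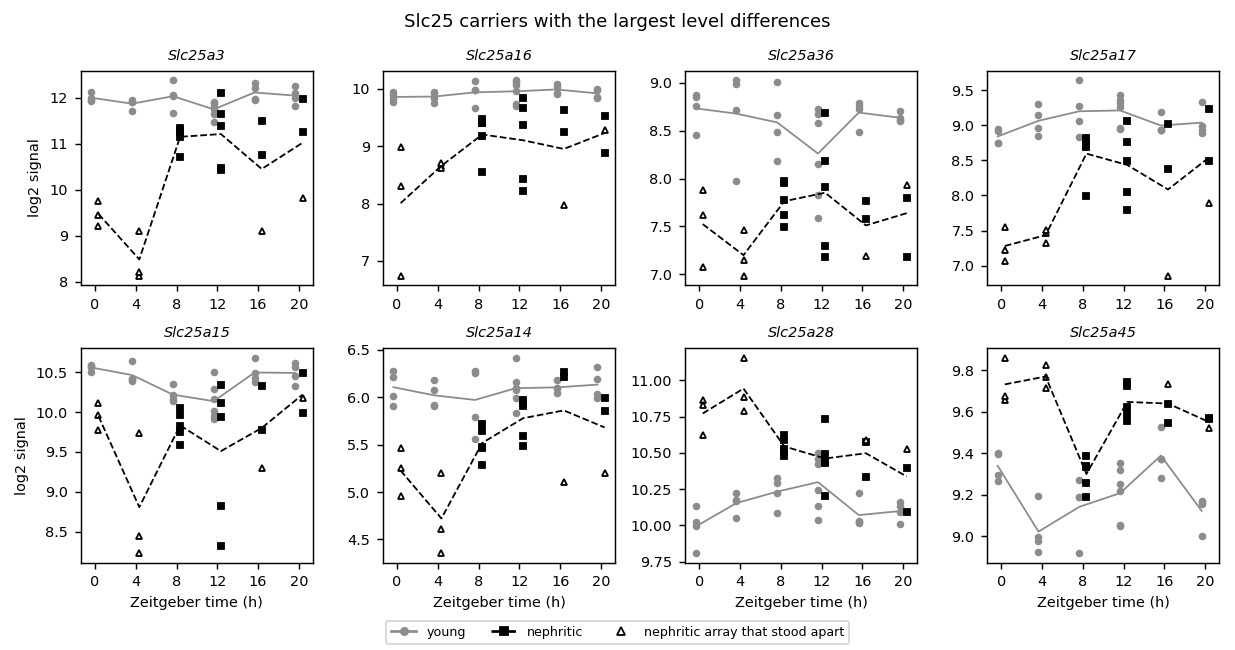
Log2 signal against Zeitgeber time in hours for the 6 Slc25 members with the largest fall and the 2 with the largest rise in nephritic kidneys. Symbols are as in the plot of young time courses; Slc25a16 and Slc25a36 lay below the young arrays also at ZT8, where no array stood apart.

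Markers of nephron segments were lower in the same kidneys: 5 of 8 detected proximal tubule markers (of 10 listed) and 4 of 5 of the thick limb and distal tubule (of 6 listed) passed, with 0 higher in either list, against 28.6% of all genes lower. Of the 4 collecting duct markers, 2 were higher and 1 lower. The mean of the proximal tubule markers, relative to all arrays, lay between 0.00 and 0.31 in young and between -1.48 and 0.25 in nephritic arrays. All 6 myeloid, 5 T cell, 3 B cell and 4 fibroblast markers detected were higher, against 36.5% of all genes. Of the red cell markers, 2 of 4 detected (of 9 listed) were higher, with a mean between -0.80 and 1.53 in young and between -0.88 and 2.67 in nephritic arrays. Over ZT8 to ZT20 without the 8 arrays, 3 proximal tubule and 3 thick limb and distal markers were lower, against 20.5% of all genes. The part of these lists in the levels of the carriers was not tested.

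The 5 nephritic arrays of ZT12 split by array set in most of the family. In 21 of 33 members (63.6%) both nephritic arrays of the first set read below all 3 of the second, against 24% of all genes. The reverse held in 4 members (12.1%), against 31.3% of all genes. Slc25a20 read 9.52 and 9.61 in the first set and 10.59, 10.78 and 10.88 in the second. Slc25a42 read 8.17 and 8.07 against 9.60, 9.31 and 9.86, and Slc25a10 read 9.999 and 9.66 against 10.82, 10.80 and 10.89. In young ZT12 arrays the first set lay below the second in 4 members (12.1%, against 14.7% of all genes) and above it in 2 (6.06%, against 12% of all genes).

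The same 2 nephritic arrays had the lowest proximal tubule marker means at ZT12, -1.18 and -1.48, whereas the 3 of the second set had -0.03, 0.07 and 0.25. Their T cell marker means were 1.06 and 2.19, against 0.07, 0.66 and 0.26. Within the first set, nephritic minus young at ZT12 was below 0 in 27 members, with a median of -0.60 over the members and 0.02 over all genes. Within the second set it was below 0 in 23 members, with a median of -0.17 over the members and -0.02 over all genes. The difference was -1.31 in the first set and -0.01 in the second for Slc25a20, -1.67 and 0.18 for Slc25a42, -1.42 and 0.40 for Slc25a36, and -1.36 and -0.47 for Slc25a33. The part of the array set and of these marker levels in the low values was not tested.

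Whether the daily course differed between young and nephritic kidneys was tested in 2 ways. The time by disease interaction, which asks whether the difference changed over the 6 times, passed for 14 of 33 members (42.4%, against 21.3% of all genes). A change of the 24 h cosine (cosinor) passed for 12 members (36.4%, against 16.2% of all genes), and 10 members passed both tests. Without the second array set at ZT12 the cosinor count was 7, a setting for which the share of all genes is not given here. Of the 12 members that varied in young kidneys, 7 passed the interaction test and 5 the cosinor test. Unadjusted p-values under 0.05 were found in 19 members by each test.

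Slc25a33 did not show its daytime rise in nephritic kidneys. Nephritic arrays read 7.78, 7.60, 7.97, 7.03 and 7.46 at ZT8 and 7.13, 6.88, 7.61, 7.99 and 7.94 at ZT12, all below the lowest young array of those times (8.14). At ZT0 they read 7.76, 7.45 and 8.36 and at ZT20 7.73, 7.54 and 7.89, overlapping with the young arrays of both times. Its fitted amplitude was 0.43 ± 0.07 in young and 0.16 ± 0.08 in nephritic kidneys (SE), with adjusted p = 0.00208 for the change in rhythm and 0.00475 for the interaction. Without the 8 arrays its change in rhythm had an adjusted p of 0.214, and with the covariate 0.0428. The level at ZT8, where no nephritic array stood apart, did not overlap between the diagnoses.

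The amplitude fitted to Slc25a42 was likewise smaller in nephritic (0.17 ± 0.13) than in young kidneys (0.39 ± 0.11), but the change did not pass (adjusted p = 0.0934), nor did the interaction (adjusted p = 0.189). The fitted peak of Slc25a20 was at 14.0 h in young and 14.1 h in nephritic kidneys, with amplitudes of 0.33 ± 0.09 and 0.29 ± 0.10 (adjusted p for the change = 0.97). When the 8 arrays were left out, the amplitudes of Slc25a20 were 0.52 in young and 0.15 in nephritic kidneys, with the nephritic peak at 16.3 h (adjusted p = 0.646), and with the covariate the nephritic amplitude was 0.13 with a peak at 17.4 h. A difference in its course was not detectable at the spread of the nephritic arrays, whose SD reached 0.79 at ZT0.

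Of the 12 members with a changed rhythm, 10 had a larger fitted amplitude in nephritic kidneys, with Slc25a33 and Slc25a34 as the exceptions. This was so for 24 of all 33 members, and over all genes the median amplitude was 0.09 in young and 0.16 in nephritic kidneys, while the median SD within groups was 0.164 and 0.263. Slc25a26 had an amplitude of 0.12 ± 0.04 in young and 0.31 ± 0.05 in nephritic kidneys, with fitted peaks at 8.81 h and 0.64 h (adjusted p = 0.000306). Slc25a29 went from 0.20 ± 0.06 to 0.41 ± 0.07 and from a peak at 12.8 h to 23.5 h (adjusted p = 0.000338). Slc25a10 went from 0.21 ± 0.07 to 0.37 ± 0.08 and from 9.74 h to 0.38 h (adjusted p = 0.00202). Slc25a34 peaked at 12.5 h in young and 1.36 h in nephritic kidneys (amplitudes 0.31 ± 0.08 and 0.26 ± 0.09; adjusted p = 0.00387). Slc25a3 went from 0.10 ± 0.18 to 1.06 ± 0.20 (adjusted p = 0.0085). The other members that passed were Slc25a1, Slc25a11, Slc25a12, Slc25a14, Slc25a28 and Slc25a39. Tested over all probes, the change did not pass on other probes of Slc25a1 (adjusted p = 0.303), Slc25a11 (0.771 and 0.610) and Slc25a34 (0.131). It passed on the second probe of Slc25a3 (adjusted p = 0.0423).

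Without the 8 arrays, which leaves 14 nephritic arrays over ZT8 to ZT20, 0 members passed the interaction and 0 the cosinor test by limma, with 10 and 9 members at an unadjusted p under 0.05. With the covariate 4 passed each test: Slc25a10, Slc25a26 and Slc25a34 passed both, Slc25a48 the interaction and Slc25a33 the cosinor test. In the interaction fit the covariate rested on replicate 3 of ZT16 and of ZT20, so it is no separate check of ZT0 and ZT4. With a random block for the title code, 0 members passed the interaction and 4 the cosinor test (Slc25a10, Slc25a26, Slc25a29 and Slc25a33). The shares of all genes passing in these settings are not given here, so the counts do not show a loss particular to the carriers.

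**Figure D4:**
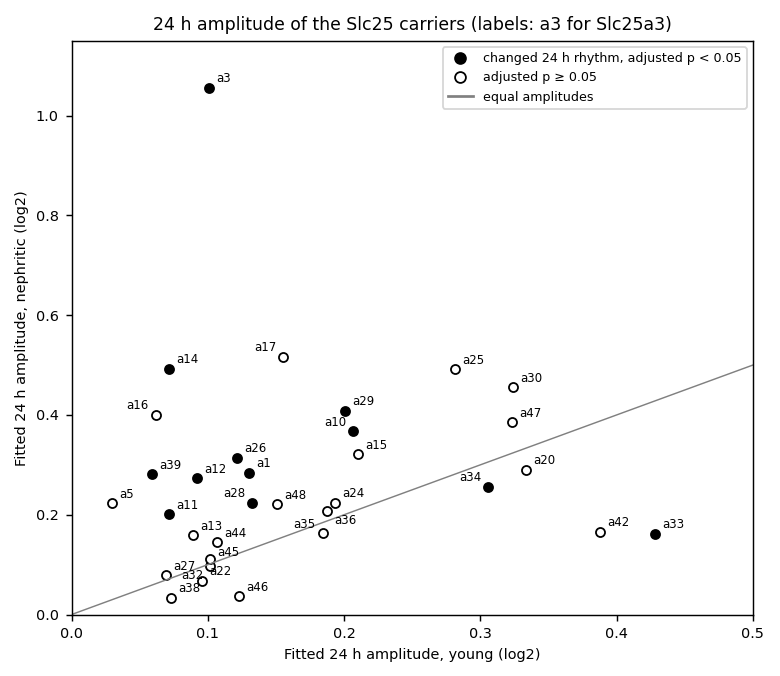
Fitted 24 h amplitude in nephritic kidneys against that in young kidneys, both in log2, for the 33 Slc25 members. Filled circles are the 12 members with a changed 24 h rhythm at an adjusted p under 0.05 and the line marks equal amplitudes; 24 members lie above it, and Slc25a33 and Slc25a42 lie lowest against it.

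Genes that work beside the carriers were counted from lists, as context, against 18.3% of all genes varying in young kidneys, 36.5% higher and 28.6% lower in nephritic kidneys. Without the 8 arrays that stood apart, 25.8% of all genes were higher and 20.5% lower. Of the carnitine shuttle, 3 of 4 detected genes varied in young kidneys: Cpt1b, Cpt2 and the plasma membrane carnitine transporter Slc22a5. In nephritic kidneys 0 of 4 varied, against 17.2% of all genes. The interaction did not pass for Cpt1b, Cpt2 or Slc22a5 (adjusted p = 0.785, 0.0656 and 0.271). A changed 24 h cosine passed for Cpt2 (adjusted p = 0.0134), but not for Cpt1b or Slc22a5 (adjusted p = 0.942 and 0.643). In young kidneys Cpt2, which takes over the acyl group that Slc25a20 delivers, was highest at ZT12 with a range of 0.48 (adjusted p = 0.0111). Of the enzymes of the malate-aspartate and citrate shuttles, 5 of 8 were lower and 3 higher in nephritic kidneys, and without the 8 arrays 3 were lower and 2 higher. Among them cytosolic malate dehydrogenase Mdh1 fell by 1.67 ± 0.15, and by 0.98 without the 8 arrays. Of the urea and ornithine enzymes, 4 of 6 were lower and 0 higher (2 lower without the 8 arrays), with argininosuccinate lyase Asl lower by most (level difference -1.22, and -1.08 without the 8 arrays). All 3 outer membrane channels were lower (2 without the 8 arrays), Vdac3 by most (-0.91, and -0.61 without them). Of the translocases that import carriers, 4 of 8 were higher and 2 lower, shares near those of all genes, and without the 8 arrays 1 was higher and 1 lower. Mtch2, a protein of the carrier fold without a Slc25a symbol, fell by 1.25 ± 0.13, and by 0.99 without the 8 arrays, while Mtch1 rose by 0.42 ± 0.04, and by 0.31 without them. Of the regulators listed, Ppargc1a, a coactivator of mitochondrial genes, was highest at ZT12 in young kidneys (range 0.82) and rose by 0.73 ± 0.09 in nephritic kidneys, or by 0.49 without the 8 arrays. The mitochondrial transcription factor Tfam fell by 0.91 ± 0.09, and by 0.61 without them.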

How the data were processed

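RNA of whole kidneys was hybridised to 48 Illumina MouseRef-8 v2.0 arrays of 1 colour. The authors extracted, with GenomeStudio, a signal intensity and a detection p-value per probe; the deposited intensity was linear and not normalized between arrays, and the deposited p-value gives how often negative control beads reached the signal of a probe. A quantile-normalized intensity table that the authors deposited as well served as an alternative. Signals were corrected by normexp with an offset of 16, quantile-normalized and log2-transformed (neqc, limma 3.58.1, R 4.3.3). Of 25697 probes, 23978 had 1 symbol, 0 several and 1719 none; 15981 probes with a symbol were detected on at least 3 arrays, giving 11559 genes. Times were compared by limma's moderated F-test within each diagnosis (5 degrees of freedom), level and interaction in 1 fit of 12 group means, and rhythm by a 24 h cosinor (2 degrees of freedom). P-values were adjusted by Benjamini-Hochberg over all genes (threshold 0.05). The tests were checked on simulated data.

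Members, roles and gene lists were chosen with earlier results of these data known. Full values were given for Slc25a33 and Slc25a42, which the study names, the 8 members with the largest range among those varying in young kidneys, up to 6 varying in nephritic kidneys, the 6 with the largest difference in each direction, and up to 5 each for interaction and rhythm; others were named briefly, and further probes, array-set values and the motifs shown were chosen after their values were seen. Replicates were numbered in the order listed. The highest correlation of 2 arrays was 0.996, with 0 identical pairs. The number of arrays limits the precision. Gene coordinates came from RefSeq (GRCm38.p6), matched through the gene identifiers of all 33 members.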

Additional observations from a re-analysis of the deposited data

Results flagged for a closer look

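Single arrays lay far from the others of their group in 10 of 176 groups of 4 to 6 arrays tested over 22 members, and chance alone sets apart about 1 in 20 groups. These values were Slc25a42 in young ZT16 replicate 3 (9.06, nearest other array 9.18), Slc25a20 in young ZT12 replicate 2 (11.13, nearest other array 10.82), Slc25a30 in young ZT4 replicate 4 (7.51, nearest other array 7.34), Slc25a30 in young ZT8 replicate 1 (6.82, nearest other array 7.34), Slc25a45 in young ZT20 replicate 2 (9.001, nearest other array 9.16). The others were Slc25a26 in young ZT20 replicate 1 (7.47, nearest other array 7.67), Slc25a28 in young ZT16 replicate 2 (10.22, nearest other array 10.03), Slc25a17 in young ZT16 replicate 1 (9.18, nearest other array 8.94), Slc25a17 in nephritic ZT8 replicate 4 (7.99, nearest other array 8.69) and Slc25a15 in young ZT4 replicate 4 (10.64, nearest other array 10.42).

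The course over the day differed between young and nephritic kidneys by the interaction test in 14 members. Their adjusted p-values in limma were Slc25a10 0.00266, Slc25a11 0.0385, Slc25a12 0.0415, Slc25a14 0.0297, Slc25a25 0.0239, Slc25a26 0.000383, Slc25a28 0.00345, Slc25a29 0.00014, Slc25a3 0.000238, Slc25a30 0.0328, Slc25a33 0.00475, Slc25a34 0.0129, Slc25a45 0.00653, Slc25a48 0.00203. A changed 24 h rhythm was found in 12 members, with adjusted p-values of Slc25a1 0.0234, Slc25a10 0.00202, Slc25a11 0.0375, Slc25a12 0.00723, Slc25a14 0.013, Slc25a26 0.000306, Slc25a28 0.00827, Slc25a29 0.000338, Slc25a3 0.0085, Slc25a33 0.00208, Slc25a34 0.00387, Slc25a39 0.0397. All nephritic arrays of ZT0 and ZT4 stood apart by Pabpc1, and 0 of these members passed either test without the 8 such arrays. The part of those arrays in the differences was not tested beyond these counts.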

How the results depend on the processing

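The counts of members stayed within 1.5 times their main value under median scaling, the deposited normalized table, quantile normalization without background correction, a normexp offset of 50, no detection filter, detection on all arrays, the mean of all detected probes, trended and robust empirical Bayes, and, for the time courses, the cosinor and the ordinary F-test. Of single members, Slc25a1 reversed with the mean of its probes (-0.00856), and Slc25a47 reversed without the 8 arrays that stood apart (-0.00088) and with the covariate for them (-0.22). Slc25a26, called higher on all arrays, also changed sign without the 8 arrays (-0.0098).

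Without the 8 arrays, 0 members varied in nephritic kidneys, 3 were higher, 0 showed an interaction and 0 a changed rhythm. With the covariate the numbers were 0, 4, 4 and 4, and 8 members were lower. With a random block for the title code, 4 were higher, 0 showed an interaction and 4 a changed rhythm. For these settings, the share of all genes is given only for the levels without the 8 arrays. Without the second array set at ZT12, 7 showed a changed rhythm. The cause was not tested, but the first setting leaves 14 nephritic arrays over ZT8 to ZT20. That setting and the restriction of young arrays to ZT8 to ZT20 (8 varying members), the latter added after seeing the data, drop the times around lights on.

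Leaving out each array in turn, 9 to 14 members varied in young kidneys, 4 to 10 in nephritic kidneys (4 without replicate 2 of nephritic ZT4), 6 to 8 were higher, 11 to 14 lower, 10 to 16 showed an interaction and 10 to 15 a changed rhythm. No paired analysis was possible because replicate numbers follow the order of listing and pair no samples. Members near background (Slc25a13, Slc25a22, Slc25a27, Slc25a46 and Slc25a48) are limited by signal.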
